A study of Rattus norvegicus with 96 samples.

Results

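MicroRNAs of the miR-125, miR-99 and miR-100 families were followed through the prefrontal cortex (PFC), epididymal visceral adipose tissue (VAT), liver and kidney of rats fed casein or whole egg. The members were all microRNAs whose name begins with miR-125a, miR-125b, miR-99a, miR-99b or miR-100, which gave 6 of the 107 microRNAs listed in any of the 4 tissue tables. They are miR-125a-5p, miR-125b-5p, miR-125b-2-3p, miR-99a-5p, miR-99b-5p and miR-100-5p. All 6 were measured in PFC and VAT. In liver miR-125a-5p and miR-99a-5p were measured, and in kidney miR-125a-5p and miR-99b-5p, and only those were analysed there.

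The animals were 12 male Sprague Dawley rats, 7 weeks old when the diets began, and each gave 1 small RNA library per tissue, 48 in all. One group of 6 ate a casein-based diet and another group of 6 a whole egg-based diet, with the same protein content, for 2 weeks, and tissues were taken after an overnight fast. All rats had earlier been trained to a restricted feeding window and bled repeatedly after a test meal, on both diets. Diet was read from the column headings of the count tables, because the sample labels carry animal numbers but no diet.

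A microRNA directs silencing complexes to messenger RNAs through its seed, the bases just behind its 5′ end, so microRNAs that share a seed are grouped as a family. The miR-125 family is the vertebrate counterpart of lin-4, the worm microRNA that times larval development, and miR-99 and miR-100 form a family with a separate seed whose best studied target in human cells is the growth kinase mTOR. In mammals these genes lie next to let-7 genes, so that 1 genomic cluster can hold an miR-99 or miR-100 gene, a let-7 gene and an miR-125 gene.

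The mature sequences below, from RefSeq on the GRCr8 rat assembly, are shown because the families are defined by them. An entry was found for 5 of the 6 members, and miR-99a-5p is named only. Capitals mark the seed, bases 2 to 8 from the 5′ end.
miR-125a-5p: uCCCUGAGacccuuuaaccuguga
miR-125b-5p: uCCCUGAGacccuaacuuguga
miR-125b-2-3p: aCAAGUCAggcucuugggaccu
miR-99b-5p: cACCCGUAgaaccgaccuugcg
miR-100-5p: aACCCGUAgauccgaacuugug
let-7e-5p: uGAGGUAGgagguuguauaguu
The miR-125a-5p and miR-125b-5p lines share the seed CCCUGAG and their first 13 bases. The miR-99b-5p and miR-100-5p lines share the seed ACCCGUA and differ at 4 of 22 positions, C1A, A11U, C16A and C21U, counted from the 5′ end with the miR-99b-5p base first. The third miR-125 member, miR-125b-2-3p, comes from the opposite arm of a miR-125b hairpin and has the seed CAAGUCA, found in no other member printed. The let-7e-5p line stands for the let-7 mates of the clusters.

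The genes fall into 3 clusters. On chromosome 1 Mir99b, Mirlet7e and Mir125a follow each other with 95 and 353 bases between the hairpins, and miR-125a-5p itself lies at chr1:67350689-67350712 on the plus strand, miR-99b-5p at chr1:67350070-67350091. On chromosome 8 Mir100, whose mature product is at chr8:50798307-50798328, is 6828 bases from Mirlet7a-2 and 51661 bases from Mir125b1. On chromosome 11 Mir99a is 639 bases from Mirlet7c1, and miR-125b-5p of Mir125b2, at chr11:29732588-29732609, begins 45115 bases beyond Mir99a. The mature miR-125b-5p of Mir125b1 and Mir125b2 is 1 product in the tables, so its reads cannot be divided between chromosomes 8 and 11. How the counting divided reads that fit 2 close members was not given in the sources used here, so the split within a seed family is uncertain.

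Levels are given as a share of the counts of a library, or as CPM, which is the same quantity scaled to a common library size after a trimmed-mean (TMM) correction between libraries of 1 tissue. Total counts per library ranged from 294445 to 2093710 for PFC, 44390 to 1536300 for VAT, 845543 to 1870870 for liver and 187169 to 1345950 for kidney. The tables listed 91, 64, 52 and 58 microRNAs. The leading microRNA was a marker of the labelled tissue in PFC and liver, while VAT and kidney had the same leading microRNA. MiR-9a-5p, a neural microRNA, led PFC with a median of 23.3% of counts, and the hepatocyte microRNA miR-122-5p led liver with 35.3%. MiR-10b-5p, placed on the fat and stroma list, led VAT and kidney with 50.1% and 29.0%, so it does not set VAT apart from kidney. The other fat and stroma markers analysed in VAT were miR-145-5p, with a median of 0.0871% against 0.0178% in kidney, and miR-199a-3p, with 0.178% against 0.148%. MiR-143-3p and miR-196a-5p of that list were not analysed in VAT. The 4 kidney markers summed to a median of 21.8% of kidney counts, against 29.2% for the fat and stroma markers analysed there. Of the 6 brain markers on the list, 3 were analysed in PFC, where together they took 10.7% to 31.0%, and miR-124-3p was not among them. Several libraries stood apart on the first principal components. They were the VAT library of animal 12, those of animals 7 and 9 in PFC, 4 and 6 in kidney and 10 in liver. The VAT library of animal 12 had the lowest total, 44390 counts. It held 1.82% miR-9a-5p against at most 0.398% in the other VAT libraries, and 1.67% miR-122-5p against at most 0.786%. The PFC library of animal 9 held 9.60% miR-9a-5p, the lowest in PFC, and 13.8% miR-10b-5p. In bulk tissue a lower level from fewer cells of a type cannot be told apart from less RNA per cell.

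Together the members took a few percent of the counts in PFC and VAT, and less in liver and kidney, where fewer members were analysed. Summed over the members analysed, the share had a median of 2.74% in PFC, with a range of 0.540% to 5.19% over 12 libraries. In VAT the median was 2.15%, with a range of 0.829% to 10.6%, the highest value being animal 12. The 2 liver members summed to a median of 0.373% and the 2 kidney members to 0.237%. These sums span different numbers of members, so they describe each table and are not compared.

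MiR-100-5p was the leading member in PFC, and miR-99a-5p the leading member in VAT. The share of miR-100-5p in PFC ran from 0.124% through a median of 0.990% to 1.91%, which ranked it 19 of 91. MiR-99a-5p in VAT ran from 0.139% through 0.778% to 4.47% and ranked 14 of 64. Below miR-100-5p in PFC came miR-125a-5p with a median share of 0.470%, miR-99a-5p with 0.394% and miR-99b-5p with 0.357%. These medians were close beside ranges that each spanned several fold and overlapped. Below miR-99a-5p in VAT came miR-100-5p with a median share of 0.498%, miR-125a-5p with 0.409% and miR-99b-5p with 0.382%, again with overlapping ranges. The lowest of the 6 members in both tissues were miR-125b-5p, with median shares of 0.0974% in PFC and 0.133% in VAT, and the opposite-arm product miR-125b-2-3p, with 0.1004% and 0.0331%. All mature sequences shown have 22 to 24 bases, so the shares of different members were set side by side without a length correction.

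**Figure D1:**
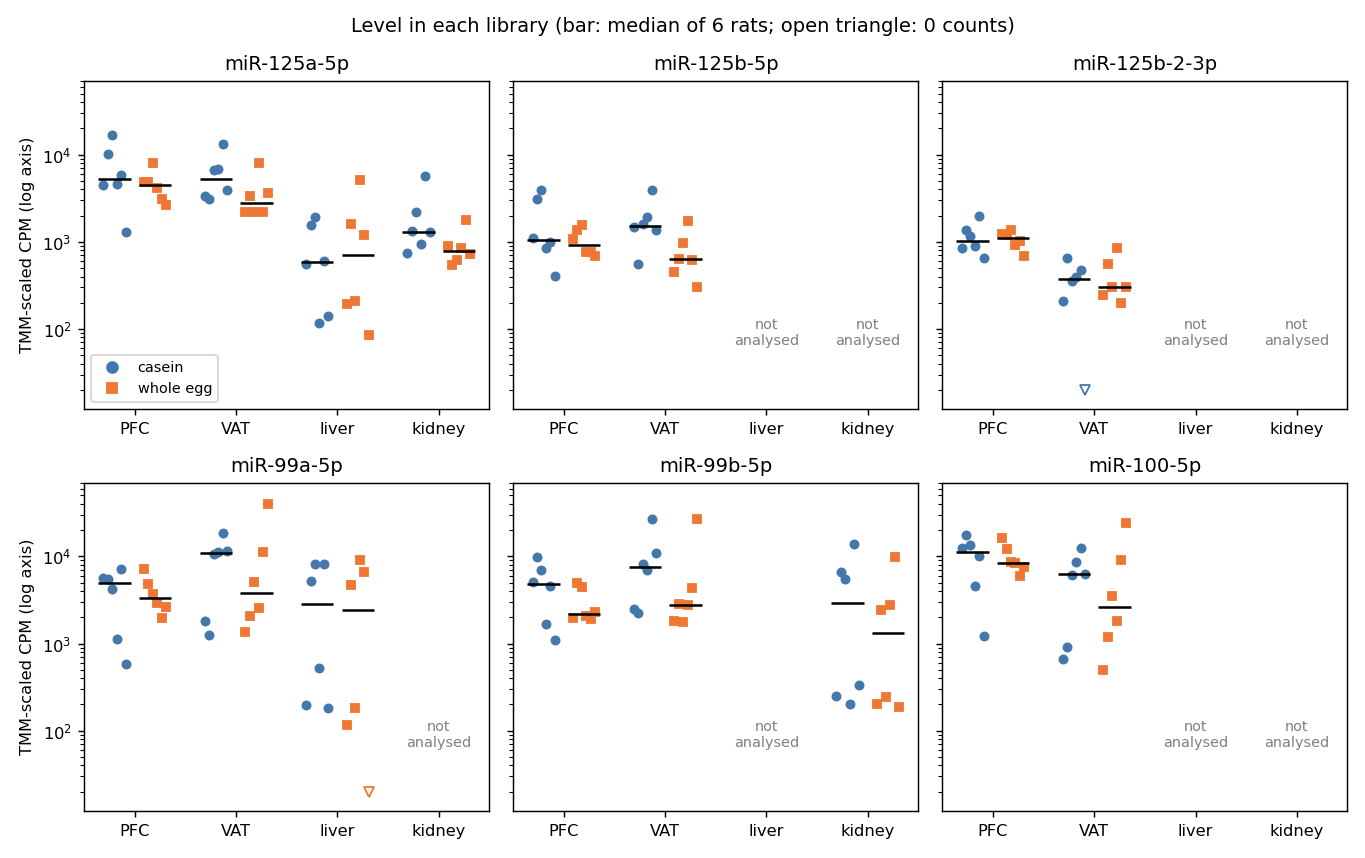
TMM-scaled CPM (log axis) of the 6 members in each library, by tissue on the horizontal axis and by diet (circles casein, squares egg), with a bar at the median of 6 rats and an open triangle for a library with 0 counts. The liver levels of miR-99a-5p and the kidney levels of miR-99b-5p fall into a high and a low set within each diet, and the casein and egg ranges overlap in all 16 member and tissue panels.

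Only miR-125a-5p was listed in all 4 tissues, and it was lower in liver and kidney than in PFC and VAT. Its median share was 0.470% in PFC (range 0.134% to 1.51%), 0.409% in VAT (0.209% to 0.764%), 0.1097% in kidney (0.0531% to 0.407%) and 0.0591% in liver (0.00823% to 0.409%). It was compared between tissues by edgeR's quasi-likelihood test over the 39 microRNAs listed in all 4 tables, with 12 libraries per tissue. Kidney was 3.57-fold below VAT (log2 difference -1.84 ± 0.50 SE, adjusted p = 0.00115 by edgeR) and 3.00-fold below PFC (adjusted p = 0.00375 by edgeR). Liver was 3.41-fold below VAT (adjusted p = 0.00235 by edgeR) and 2.86-fold below PFC (adjusted p = 0.00564 by edgeR). The order was thus VAT and PFC above liver and kidney, with no difference beyond the spread within either pair. VAT against PFC gave a log2 difference of 0.25 ± 0.48 (adjusted p = 0.626 by edgeR) and kidney against liver -0.07 ± 0.50 (adjusted p = 0.892 by edgeR). Calls at adjusted p under 0.05 were common in these comparisons, at 69.2% of the 39 microRNAs for VAT against PFC, 64.1% for kidney against VAT, 69.2% for kidney against PFC, 61.5% for liver against VAT, 76.9% for liver against PFC and 69.2% for kidney against liver. With the rat as a block liver was 5.12-fold below VAT (log2 difference -2.36, adjusted p = 7.7e-05 by edgeR), and with scaling to library totals VAT fell below PFC (log2 difference -1.04, adjusted p = 0.0242 by edgeR).

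The 5 other members were compared in the tables that held them, in fits added after the data were seen. Between VAT and PFC 54 microRNAs were tested and 64.8% were called, 31.5% as higher and 33.3% as lower in VAT. Both miR-99 members were higher in VAT, miR-99a-5p by 3.34-fold (log2 difference 1.74 ± 0.51 SE, adjusted p = 0.00389 by edgeR) and miR-99b-5p by 2.93-fold (1.55 ± 0.45, adjusted p = 0.00362 by edgeR). Neither call held with the rat as a block, where the log2 differences were 1.33 (adjusted p = 0.132 by edgeR) for miR-99a-5p and 1.16 (adjusted p = 0.0660 by edgeR) for miR-99b-5p. MiR-125b-2-3p was lower in VAT, by -0.996 ± 0.430 on the log2 scale (adjusted p = 0.0460 by edgeR), and by -1.30 with the block (adjusted p = 0.0331 by edgeR). Its 12 VAT values included 1 library with no count, animal 11, where 0 of 540730 counts allows a share of up to 0.000555% by counting error alone. For miR-125b-5p (log2 difference 0.41 ± 0.34) and miR-100-5p (-0.22 ± 0.50) the VAT and PFC levels did not differ beyond the spread, with adjusted p = 0.309 and 0.705 by edgeR.

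For miR-99b-5p kidney against VAT gave a log2 difference of -1.60 ± 0.75 (adjusted p = 0.0700 by edgeR), in a comparison where 58.8% of 51 microRNAs were called, and -2.29 with the block (adjusted p = 0.0232 by edgeR). Kidney against PFC gave 0.15 ± 0.68 for the same microRNA (adjusted p = 0.870 by edgeR, with 64% of 50 microRNAs called). For miR-99a-5p liver against VAT gave -1.26 ± 0.92 (adjusted p = 0.238 by edgeR, with 58.7% of 46 called) and liver against PFC 0.67 ± 0.80 (adjusted p = 0.432 by edgeR, with 76.2% of 42 called). With the block the differences from PFC changed sign without being called, to -1.16 for miR-99b-5p in kidney and -0.60 for miR-99a-5p in liver, as did kidney against liver for miR-125a-5p, to 0.50. These liver and kidney values were taken over libraries that split as described next.

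Both liver members and miR-99b-5p in kidney fell into a high and a low set of rats, the same rats in both organs, while miR-125a-5p in kidney did not separate them. The first 6 columns of the liver table hold animals 3, 4, 6, 8, 9 and 10, of which 3 ate casein and 3 egg, and the last 6 hold animals 1, 2, 5, 7, 11 and 12. No label gives this order a meaning, and the split was noticed in these values, so it is described with no test. MiR-99a-5p in liver had CPM of 5214, 8088 and 8165 in the casein rats and 4723, 9024 and 6625 in the egg rats of the first columns. In the last columns its CPM was 196, 518 and 181 in the casein rats and 117, 183 and 0 in the egg rats. The ranges did not overlap, and the ratio of the set medians was 40.4. The zero was animal 12, where 0 of 1870870 counts allows a share of up to 0.000160%.

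MiR-125a-5p in liver followed the same split, with CPM from 607 to 5158 (median 1580) in the first columns and from 85.7 to 562 (median 168) in the last, a ratio of medians of 9.41. MiR-99b-5p in kidney had CPM of 6593, 5449 and 14022 in the casein rats and 2401, 2737 and 9927 in the egg rats of the first columns. In the last columns all 6 values lay between 189 and 332, so the ranges again did not overlap, and the ratio of medians was 27.0. MiR-125a-5p in kidney did overlap, at 535 to 5695 in the first and 618 to 1285 in the last columns. In PFC and VAT no member, and none of the other microRNAs, separated the same rats. Ranges failed to overlap for 30.8% of the 52 liver microRNAs and 37.9% of the 58 kidney microRNAs, so the members shared this split with many others. The first columns were the higher set for 15.4% and 15.5%. Of the relatives and cluster mates, miR-10a-5p, a trunk microRNA of the Hox clusters, was higher in the first columns in both organs, let-7c-5p and miR-10b-5p were higher there in liver, and let-7a-5p and let-7e-5p were lower there in kidney.

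Other markers moved with the split. In liver the red cell microRNA miR-486, the 1 of the 3 blood markers analysed there, took 0.0284% to 0.0973% of counts in the first columns and 1.22% to 16.5% in the last. In kidney miR-9a-5p, the 1 of the 6 brain markers analysed there, took 0.129% to 0.487% in the first columns and 0.0516% to 0.0794% in the last. The 4 kidney markers, miR-10a-5p among them, summed to 23.1% to 35.6% of kidney counts in the first columns and 17.9% to 20.4% in the last. The fat and stroma markers analysed in kidney overlapped, at 22.2% to 34.0% and 25.1% to 36.0%. The 3 liver markers summed to 37.7% to 57.7% of liver counts in the first columns and 40.8% to 60.6% in the last, and the 2 endothelial markers to 0.139% to 0.249% and 0.147% to 0.243%. Their part in the result was not tested.

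**Figure D2:**
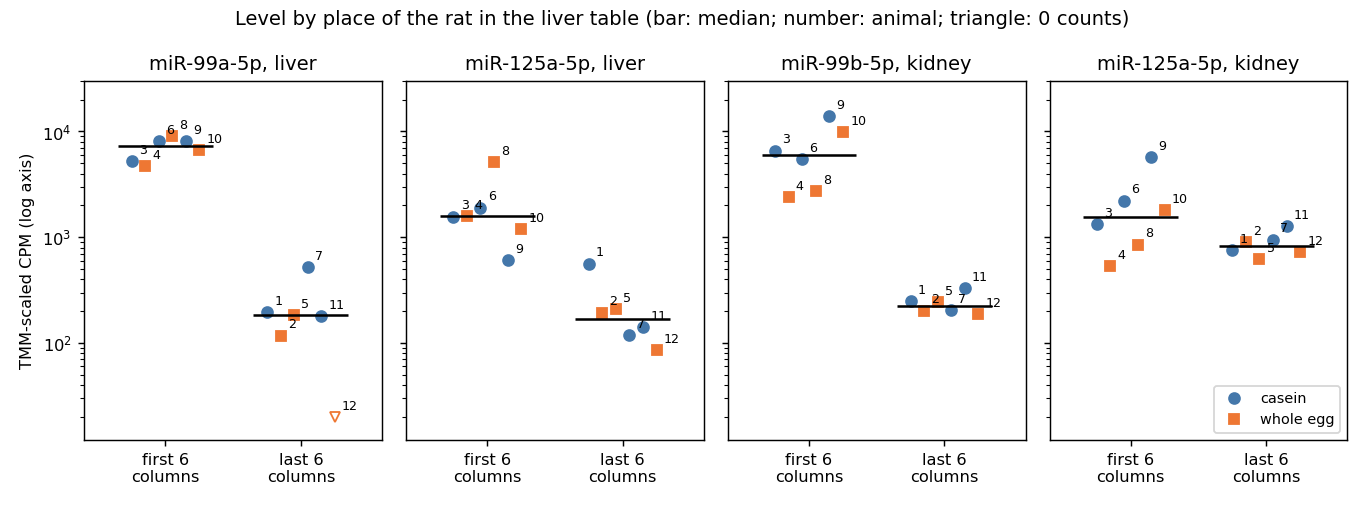
TMM-scaled CPM (log axis) of the members of liver and kidney, for the 6 rats of the first and the 6 rats of the last columns of the liver table, with bars at the medians, animal numbers beside the points and a triangle at 0 counts. The sets do not overlap for miR-99a-5p and miR-125a-5p in liver or for miR-99b-5p in kidney, and overlap for miR-125a-5p in kidney, and each set holds 3 casein and 3 egg rats.

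The SD of log2 CPM over 12 rats was 3.81 for miR-99a-5p in liver, the widest of 52 microRNAs there, and 2.496 for miR-99b-5p in kidney, the fourth of 58. MiR-125a-5p had an SD of 1.89 in liver and 0.947 in kidney, against a median of 0.441 and 0.515 over all microRNAs of those tables. In VAT miR-125b-2-3p (SD 2.22, with 1 library at 0 counts), miR-100-5p (1.82), miR-99a-5p (1.64) and miR-99b-5p (1.42) varied more than the median of 0.585. The PFC members had SDs from 0.450 for miR-125b-2-3p to 1.11 for miR-99a-5p, around the median of 0.787.

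The study asked mainly whether whole egg changes gene expression in these tissues, and further whether microRNA changes could lie upstream. No member passed the test for diet in any tissue. At adjusted p under 0.05, edgeR called 0 of the 6 members of PFC and VAT and 0 of the 2 of liver and kidney. It also called 0% of all microRNAs in each of the 4 tissues, as did DESeq2 and limma-voom. At an unadjusted p under 0.05 edgeR called 3.3% of all PFC microRNAs, 6.25% of those of VAT, 3.85% of those of liver and 1.72% of those of kidney, and limma-voom gave the same 4 shares. DESeq2 called 5.49% for PFC, 7.81% for VAT, 5.77% for liver and 1.72% for kidney. The members among them were 1 of 6 in VAT and 1 of 2 in kidney, by edgeR and by DESeq2, with none in the other tissues, while limma-voom put no member there. The casein and egg ranges of CPM overlapped for all members in all tissues, where 1.92% of liver microRNAs and none elsewhere had ranges that did not.

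Among the VAT members the smallest p belonged to miR-125b-5p, a microRNA known for restraining p53 in human and zebrafish cells. Its CPM in VAT was 1473, 554, 1588, 1911, 3976 and 1379 in casein rats 1, 3, 6, 7, 9 and 11. In egg rats 2, 4, 5, 8, 10 and 12 it was 448, 643, 975, 1755, 612 and 302. The egg rats were below the casein median of 1531 in 5 of 6 cases, but the groups overlapped through casein rat 3 and egg rat 8. The log2 fold change of egg over casein was -1.19 ± 0.48 SE, which is a 2.28-fold lower level (p = 0.0291, adjusted p = 0.593 by edgeR, 4 of 64 microRNAs at this unadjusted level, all 4 lower). Within the first and last columns the log2 fold changes were -0.94 (p = 0.254 by edgeR) and -1.54 (p = 0.0353 by edgeR). Without the VAT library of animal 12, where the egg value of 302 rests on 15 counts, the log2 fold change was -0.99 (p = 0.0545 by edgeR). Leaving out 1 rat at a time gave -1.59 to -0.80, and the unadjusted p passed 0.05 without animal 2, 4, 5, 9, 10 or 12, reaching 0.103 without animal 9, the highest casein rat.

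MiR-125a-5p in VAT had values of 3082 to 13282 CPM in casein rats (median 5308) and 2190 to 7986 in egg rats (median 2808). The log2 fold change was -0.78 ± 0.44 (p = 0.101, adjusted p = 0.621 by edgeR), with 5 of 6 egg rats below the casein median and overlapping groups, and it was -1.19 without animal 8 (p = 0.0117 by edgeR). MiR-99b-5p, miR-99a-5p and miR-100-5p in VAT gave -0.52 ± 0.80, 0.17 ± 0.86 and 0.18 ± 0.91. For all 3 the highest egg value was animal 12, with 27073, 40014 and 23908 CPM. Without that library their log2 fold changes were -1.76 (p = 0.0134, adjusted p = 0.639 by edgeR), -0.98 (p = 0.205 by edgeR) and -0.79 (p = 0.366 by edgeR), so 1 library set the direction of the latter 2. MiR-125b-2-3p gave 0.25 ± 0.81. The median over the 6 VAT members was -0.18 against 0.08 over all 64 microRNAs.

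In kidney miR-125a-5p was the 1 microRNA of 58 at an unadjusted p under 0.05. Its CPM was 752, 1332, 2220, 951, 5695 and 1285 in the casein rats and 904, 535, 618, 853, 1793 and 727 in the egg rats, in the order of animals given for miR-125b-5p. The egg rats lay below the casein median of 1308 in 5 of 6 cases, and the groups overlapped. The log2 fold change was -1.17 ± 0.50 (2.25-fold lower, p = 0.0369, adjusted p = 0.978 by edgeR). Without animal 9, the highest casein rat, it was -0.50 (p = 0.176 by edgeR), and the unadjusted p also passed 0.05 without animal 2, 4, 5, 6, 8 or 12. Within the first columns it was -1.60 (p = 0.0526 by edgeR) and within the last -0.34 (p = 0.226 by edgeR), and without animals 4 and 6 it was -1.07 (p = 0.0840 by edgeR). MiR-99b-5p in kidney gave -0.77 ± 1.24, and -0.55 ± 0.37 (p = 0.1604 by edgeR) once the set of columns was a term of the fit. Without animal 9 it was 0.04 and without animal 10 -2.01.

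In liver neither member differed between the diets beyond its spread. MiR-125a-5p had medians of 585 CPM in casein and 703 in egg rats and a log2 fold change of 0.78 ± 0.99 (p = 0.447 by edgeR), which became 0.11 with the set term. It was 0.96 within the first and -0.61 within the last columns. MiR-99a-5p gave -0.11 ± 1.52 (p = 0.942 by edgeR), and -0.81 ± 0.78 with the set term.

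In PFC all 6 members had a log2 fold change below 0, with a median of -0.38 against -0.03 over the 91 microRNAs, and none passed either threshold. Without animal 11 miR-99b-5p was at -0.94 (p = 0.0487, adjusted p = 0.532 by edgeR). The largest were miR-125b-5p with -0.74 ± 0.50 (p = 0.163 by edgeR), miR-99b-5p with -0.73 ± 0.50 (p = 0.162 by edgeR) and miR-125a-5p with -0.65 ± 0.50 (p = 0.212 by edgeR). MiR-125b-2-3p (-0.11), miR-99a-5p (-0.06) and miR-100-5p (-0.02) were near 0. Members below 0 numbered 5 of 6 with DESeq2 size factors, 4 of 6 with a term for the column sets and 3 of 6 with limma-voom, and 53.8% of all PFC microRNAs were below 0. Within the first columns all 6 were below 0, with a median of -0.84, and within the last columns all 6 were above 0, with a median of 0.53. That difference was not tested. The 6 members vary together across the PFC libraries (median r of 0.727 over their 15 pairs), so their signs are not separate observations. Animal 11, the lowest PFC rat for every member, is 1 of the 3 casein rats of the last columns. The let-7 family, which holds the cluster mates, had 8 of 8 measured members above 0 in PFC (median 0.33), with let-7e-5p at 1.26 ± 0.52 (p = 0.0302, adjusted p = 0.590 by edgeR) the 1 member under the unadjusted threshold. In VAT 5 of 8, in liver 0 of 8 and in kidney 6 of 8 let-7 members were above 0, with 0 of 8 called at the adjusted threshold in each tissue and none but let-7e-5p in PFC at the unadjusted one. Of all microRNAs 43.8% in VAT, 78.8% in liver and 41.4% in kidney were below 0, so the let-7 counts are read against those shares.

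**Figure D3:**
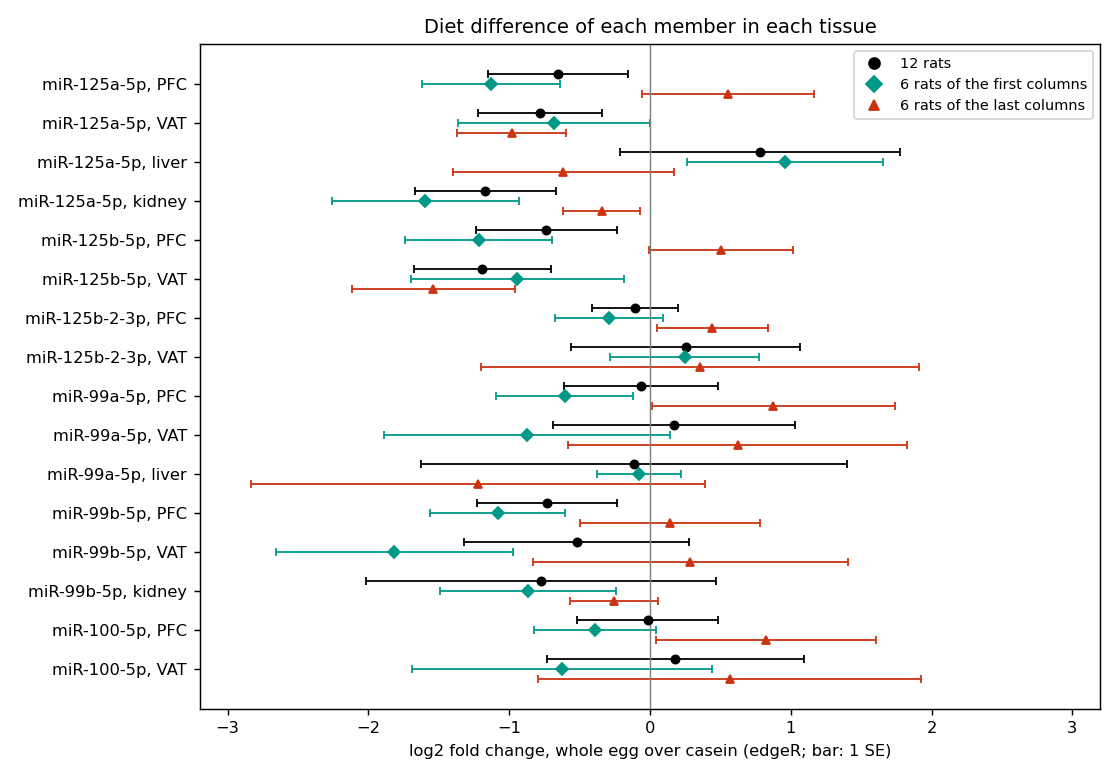
Log2 fold change of egg over casein from edgeR (horizontal axis, bars 1 SE) for each member and tissue, over 12 rats (black circles) and within the 6 rats of the first (green diamonds) and the last (red triangles) columns of the liver table. All 6 PFC members lie below 0 in the first columns and above 0 in the last. MiR-125b-5p in VAT (-1.19) and miR-125a-5p in kidney (-1.17) lie below 0 in all 3 fits, as do miR-125a-5p in VAT, miR-99b-5p in kidney and miR-99a-5p in liver.

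Whether the diet difference itself changed between tissues could be asked of miR-125a-5p, over the 39 shared microRNAs. Of 6 tissue pairs 0 passed the adjusted threshold in edgeR. Kidney against liver differed by -2.14 ± 0.94 on the log2 scale (p = 0.0275, adjusted p = 0.719 by edgeR), in a comparison where 2.56% of microRNAs reached an unadjusted p under 0.05. With the rat as a block it was -1.65 (p = 0.0953 by edgeR), and in the fit of that pair of tissues -2.04 (p = 0.0772 by edgeR), so neither kept it under 0.05. The share at that level was 7.69% for VAT against PFC, 5.13% for liver against VAT and 2.56% for the other 3 pairs, in none of which miR-125a-5p reached it. The 5 other members were compared in fits of the pairs of tissues that held them. Their p ran from 0.494, for miR-125b-5p between VAT and PFC (-0.47 ± 0.68), to 0.998 by edgeR.

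Ratios of 2 members of 1 library do not depend on the scaling, and 17 of them were compared between the diets by exact permutation tests, two-sided, with 6 rats a group. The smallest p was that of miR-100-5p to miR-99b-5p in PFC, 2 members with the same seed from different clusters. Its log2 ratio ran from 0.14 through a median of 1.04 to 1.43 in casein rats and from 0.95 through 1.66 to 3.05 in egg rats. The groups overlapped, and the mean was 0.81 higher in egg (exact p = 0.0281, adjusted p = 0.478 over 17 ratios). Leaving out 1 rat at a time gave 0.56 to 0.98, with exact p from 0.00866 to 0.0563 and above 0.05 without animal 2, 3, 8, 10, 11 or 12. None of the 17 passed the adjusted threshold, nor did any of 14 ratios of a member to its let-7 mate.

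Some ratios varied less between rats than their members did. They are ratios within a seed family, where the split of reads is uncertain, and the part of that split was not tested. The log2 ratio of miR-125b-5p to miR-125a-5p in PFC stayed between -2.53 and -1.69 in all 12 rats (SD 0.286), while the log2 CPM of the pair had SDs of 0.940 and 0.915. The ratio of miR-99a-5p to miR-100-5p stayed between 0.29 and 1.46 in VAT (SD 0.374) and had an SD of 0.390 in PFC. MiR-99a-5p was the more abundant of that pair in every VAT library and the less abundant in every PFC library, where the log2 ratio ran from -2.01 to -0.50.

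The members varied together from rat to rat in PFC. Correlations of log2 CPM over 12 rats were computed for 32 pairs of members (15 each for PFC and VAT and 1 each for liver and kidney), each with a permutation p adjusted over the 32. Both values of a pair come from the same library, and so share its depth and scaling. In PFC all 15 pairs were positive, with Pearson's r from 0.562 to 0.953 and a median of 0.727, where the median over all 4095 microRNA pairs of that table was 0.0155 and the 90th percentile 0.641. Of the 15, 11 had an adjusted p under 0.05, and 12 on deviations from the diet means. Leaving out animal 11, the lowest rat for every member in PFC, brought the median r to 0.572 (0.373 to 0.946), and leaving out animals 7 and 9 gave 0.736. Within the first and last columns the medians were 0.774 and 0.763, with n = 6 each.

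The closest pair in PFC was the 2 members with the miR-125 seed. MiR-125a-5p and miR-125b-5p, which come from different chromosomes, had r = 0.953 and Spearman's rho = 0.916 (permutation p = 1e-05, the smallest 100000 permutations can give, adjusted p = 0.00016), and r = 0.901 without the 2 rats farthest from the median. MiR-99a-5p and miR-100-5p, also from different chromosomes, had r = 0.936 and rho = 0.874 (permutation p = 5e-05, adjusted p = 0.00048), and r = 0.825 without the 2 farthest rats. The split of reads within a seed family is uncertain, and its part in these correlations was not tested. MiR-125a-5p and miR-99b-5p, neighbours in the chromosome 1 cluster, had r = 0.823 and rho = 0.685 (permutation p = 0.00072, adjusted p = 0.00324), and r = 0.739 without the 2 farthest rats. With let-7e-5p, whose gene lies between theirs, they had r = -0.011 and -0.369. MiR-125b-2-3p and miR-99a-5p had r = -0.332 and 0.018 with let-7c-5p, and miR-100-5p had -0.047 with let-7a-5p. None of these let-7 pairs was called in PFC, and let-7a-5p and let-7c-5p also come from genes on other chromosomes. The remaining PFC pairs of members ran from 0.562, for miR-125b-5p with its opposite-arm product miR-125b-2-3p, to 0.879, for miR-125b-5p with miR-99b-5p.

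**Figure D4:**
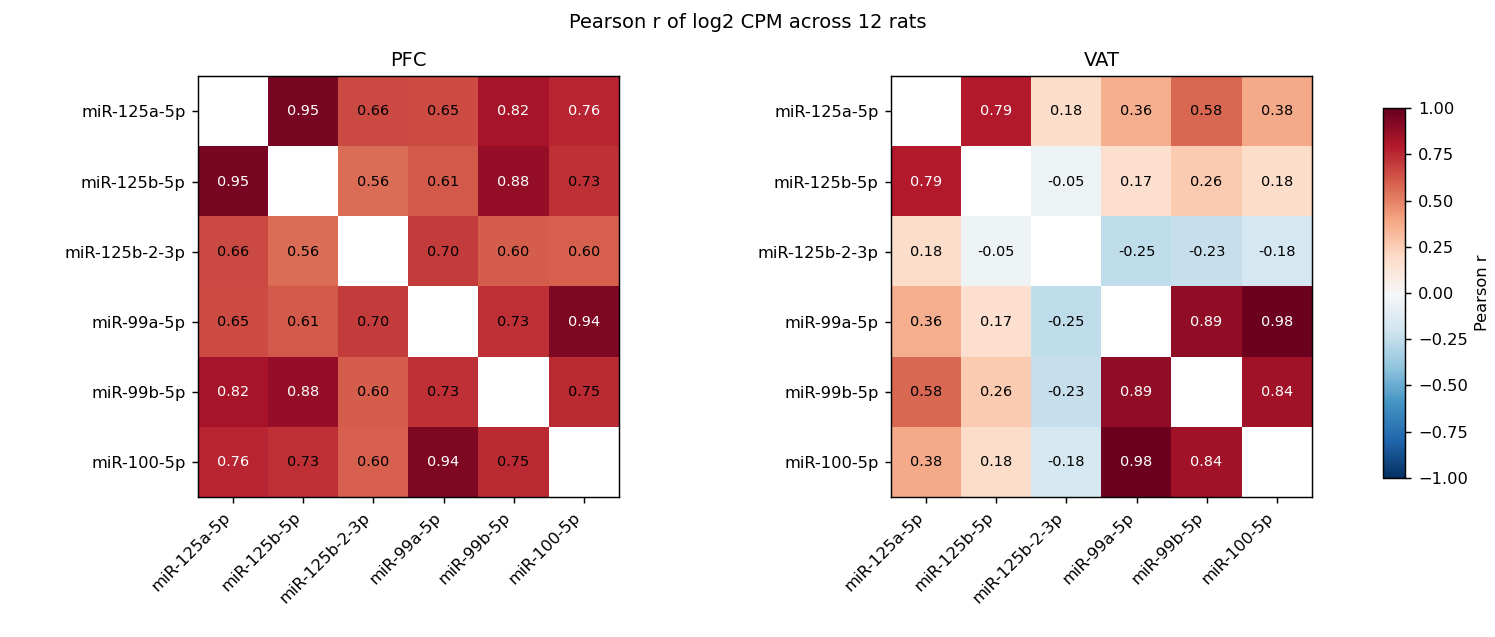
Pearson's r of log2 CPM across 12 rats for each pair of members in PFC and VAT (colour scale from -1 to 1, value in each cell). All 15 PFC pairs are positive, and in VAT the high values are within the miR-99 and miR-100 members (0.84 to 0.98) and between miR-125a-5p and miR-125b-5p (0.79).

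In VAT the highest correlations over 12 rats joined members of the same seed, a pattern that was not tested. The uncertain split of reads within a seed family applies to these pairs too. The 3 members miR-99a-5p, miR-99b-5p and miR-100-5p gave 3 of these pairs and miR-125a-5p with miR-125b-5p the fourth, and these 4 were the ones with an adjusted p under 0.05 among 15. MiR-99a-5p and miR-100-5p had r = 0.982 and rho = 0.951 (permutation p = 1e-05, adjusted p = 0.00016), with r = 0.983 without the 2 farthest rats, 0.979 without animal 12, and 0.992 and 0.990 within the column sets. MiR-99a-5p with miR-99b-5p had r = 0.886 and rho = 0.853 (permutation p = 0.00011, adjusted p = 0.000704), and r = 0.836 without the 2 farthest rats. MiR-99b-5p with miR-100-5p had r = 0.843 and rho = 0.811 (permutation p = 0.00066, adjusted p = 0.00324), and r = 0.757 without the 2 farthest rats. MiR-125a-5p with miR-125b-5p had r = 0.790 and rho = 0.734 (permutation p = 0.00217, adjusted p = 0.00698), r = 0.606 without the 2 farthest rats and 0.878 without animal 12. Within the last columns that pair had r = 0.510 (exact p = 0.299).

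Pairs across the seeds had lower r in VAT over 12 rats, but not all of them without animal 12. The chromosome 1 neighbours miR-125a-5p and miR-99b-5p had r = 0.576 and rho = 0.650 (permutation p = 0.04997, adjusted p = 0.0761), r = 0.545 without the 2 farthest rats and 0.735 without animal 12. MiR-125b-5p had r = 0.167 with miR-99a-5p and 0.181 with miR-100-5p, its cluster neighbours, and 0.624 and 0.583 without animal 12. With miR-99b-5p it had r = 0.258, and 0.744 without animal 12, near the 0.789 that miR-99b-5p and miR-100-5p then had within their seed. MiR-125b-2-3p had r between -0.253 and 0.183 with the others. The VAT median over 15 pairs was 0.258, and 0.583 without animal 12. Over 2016 pairs of all microRNAs in VAT the median was 0.00395 and the 90th percentile 0.575. Of the 15 member pairs, 4 had a higher r than 90% of all VAT pairs. The difference between PFC and VAT was not tested.

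**Figure D5:**
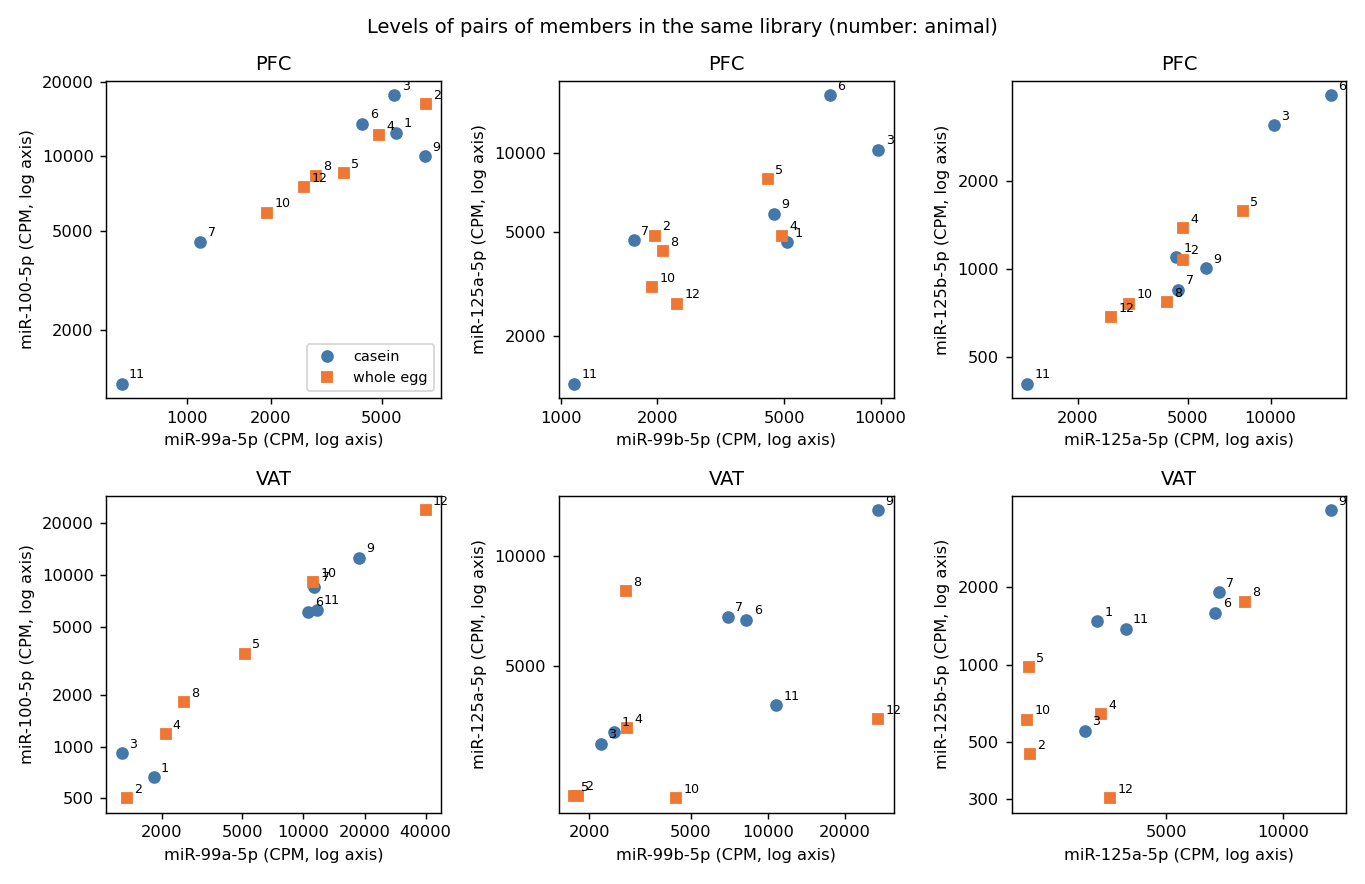
CPM of 3 pairs of members in the same library (log axes) in PFC, upper panels, and VAT, lower panels, with animal numbers and diet (circles casein, squares egg). MiR-99a-5p and miR-100-5p lie along 1 line in both tissues (r = 0.936 and 0.982), and in VAT animal 12 lies off the trend of the other 2 pairs.

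For liver and kidney, where the libraries fall into 2 sets, the correlations over 12 rats span both sets. MiR-125a-5p with miR-99a-5p in liver then had r = 0.827 (adjusted p = 0.00324 by permutation). In kidney miR-125a-5p with miR-99b-5p had r = 0.673 (adjusted p = 0.0218 by permutation). The 90th percentile over all microRNA pairs was 0.679 in liver and 0.723 in kidney, so the kidney pair lay below it. In kidney miR-99b-5p had r = 0.957 with the non-member miR-10a-5p. With its cluster mate let-7e-5p it had r = -0.809 (adjusted p = 0.0332 by permutation, over 30 pairs with relatives and cluster mates). Because these values span both sets, r was also taken within the sets, with 6 rats each. MiR-125a-5p and miR-99a-5p in liver had r = 0.218 (exact p = 0.682) in the first and 0.464 (exact p = 0.318) in the last columns. MiR-125a-5p and miR-99b-5p in kidney had r = 0.901 (exact p = 0.0139, adjusted p = 0.0957) and 0.503 (exact p = 0.318, adjusted p = 0.456). MiR-99b-5p with let-7e-5p in kidney had r = 0.830 in the first and -0.249 in the last columns.

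Outside the families, the microRNA most like miR-125a-5p over the 48 libraries was miR-191a-5p, with r = 0.893, followed by miR-181a-5p with 0.669 and let-7i-5p with 0.661. Values over 48 libraries take in differences between tissues and between column sets as well as those between rats. The same microRNA, miR-191a-5p, was most like miR-125a-5p in PFC (0.897) and VAT (0.831) and most like miR-125b-5p, miR-99b-5p and miR-100-5p in PFC (0.908, 0.741 and 0.798). In VAT miR-125b-5p was most like miR-10b-5p (0.890), and miR-99b-5p most like miR-10a-5p (0.719). MiR-99a-5p and miR-100-5p in VAT were most like miR-9a-5p, with r = 0.808 and 0.801, and 0.732 and 0.770 without animal 12. These values describe the libraries and carry no test, since the partner was chosen as the closest of all.

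Levels of the same member in 2 tissues of a rat were also compared. Over 15 comparisons of the same member in 2 tissues of the 12 rats, r ran from -0.502 to 0.577. By permutation tests of r 0 passed the adjusted threshold, with 1 at an unadjusted p under 0.05. The highest was miR-125a-5p between VAT and kidney, with r = 0.577 and rho = 0.280 (permutation p = 0.0479 for r, adjusted p = 0.387), and r = 0.287 without the 2 farthest rats. The lowest was miR-100-5p between PFC and VAT, with r = -0.502 and rho = -0.685, and r = -0.691 without the 2 farthest rats. Its permutation p was 0.0870 for r (adjusted p = 0.387) and 0.0168 for rho (adjusted p = 0.253).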

How the data were processed

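Small RNA was size-separated with the Lexogen SPLIT kit, made into Lexogen small RNA libraries and sequenced on an Illumina HiSeq. The authors trimmed adapters, counted microRNAs with the smallrnaseq tool (Bowtie) and removed microRNAs with low counts; the deposited tables hold raw counts per mature microRNA, 1 table per tissue. As each table holds only part of a library, shares are of the counts listed. The authors' own comparisons were not used.

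Within each tissue, microRNAs reaching 10 counts in 6 or more of the 12 libraries were tested with edgeR 4.0.16 (robust quasi-likelihood, TMM scaling, Benjamini-Hochberg over the table) in R 4.3.3. DESeq2 1.42.0 and limma-voom (limma 3.58.1), other scalings and filters, and leaving out each rat were alternatives. CPM are TMM-scaled, and log2 CPM uses a prior count of 2. Correlations used 100000 permutations, or all of them with 6 rats, and ratios used count + 1 with exact tests (scipy 1.17.1; smallest possible p 0.00216). Scripts were tested on simulated data. Animal numbers are separate rats, and 1 number is 1 rat in all tissues, which pairs tissues but not diets. The median correlation of deviations between tissues of a rat was 0.33 for liver with kidney and -0.04 to 0.09 for the other pairs. Between different rats of 1 diet the medians ran from -0.11 to 0.02. Liver and kidney share the split by column sets, so the pairing rests on the animal numbers. The smallest chi-square per degree of freedom between libraries of a tissue was 31.6, so none were duplicates. Named microRNAs were all members, their let-7 cluster mates, miR-10a-5p and miR-10b-5p, the closest non-members by r, the leading microRNA of each table and cell type markers. Members and lists were chosen with earlier results of these data known. The analyses by column set, without libraries that stood apart, and by pairs of tissues were added after the data were seen. Counting limits for a count of 0 use 3 counts and cover counting error only.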

Additional observations from a re-analysis of the deposited data

Results flagged for a closer look

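In 10 of 32 groups of 6 rats, 1 member and tissue at a time, the highest rat lay far from the next by Dixon's test on CPM. That test marks about 1 group in 20 by chance if values are normal. CPM are skewed upward, so that rate does not apply here and the marks only point to single high libraries. The groups are not independent, because several members of 1 library are marked together. In VAT the egg library of animal 12 was far above the next egg rat for miR-99a-5p (CPM 40014, next 11141), miR-99b-5p (27073, next 4380) and miR-100-5p (23908, next 9085), and this library has the lowest total of its table. Animal 9 was the far casein rat for miR-125a-5p in VAT (13282, next 6817), miR-99b-5p in VAT (27151, next 10815) and miR-125a-5p in kidney (5695, next 2220). Animal 8 was the far egg rat for miR-125a-5p in VAT (7986, next 3588) and in liver (5158, next 1595). Animal 10 was the far egg rat for miR-125a-5p (1793, next 904) and miR-99b-5p (9927, next 2737) in kidney. Animals 8, 9 and 10 are all in the first columns of the liver table. No far rat was found in PFC.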

How the results depend on the processing

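No member passed an adjusted p of 0.05 for diet under any alternative. Counts at an unadjusted p under 0.05 moved with the settings. In PFC 3 microRNAs became 5 with DESeq2, 1 with a term for the column sets, 1 within the first and 0 within the last columns, and 0 at p under 0.01. In VAT 4 became 0 within the first columns and 0 at p under 0.01, and the 1 member became 0 with limma-voom, library totals, the first columns or p under 0.01, and 2 within the last columns. In liver 2 became 1 with library totals and 5 with the set term. In kidney the 1 microRNA, a member, became 0 without animals 4 and 6 or at p under 0.01, and the member also with limma-voom or within either column set. Leaving out 1 rat gave 0 to 8 microRNAs in PFC (0 to 1 members), 1 to 7 in VAT (0 to 2), 2 to 3 in liver and 0 to 2 in kidney (0 to 1).

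Scaling to library totals turned miR-125a-5p, VAT against PFC, to -1.04 on the log2 scale, as it moved the median of all microRNAs by -1.27, and gave 1.12 for miR-99a-5p and 0.83 for miR-99b-5p (adjusted p = 0.0524 and 0.115 by edgeR). In the diet comparison it shifted the median of all microRNAs by 0.27 in VAT and 0.11 in kidney, and DESeq2 size factors by 0.13 in liver. The share of microRNAs below 0 went from 43.8% to 26.6%, from 41.4% to 22.4% and from 78.8% to 57.7%. With the rat as a block, pairing tissues, the VAT against PFC differences were 1.33 for miR-99a-5p and 1.16 for miR-99b-5p, no longer called, and kidney against VAT for miR-99b-5p was -2.29, now called. The kidney against liver difference of the diet effect on miR-125a-5p lost its unadjusted p under 0.05 (-1.65). The block changed no other call. Of 62 correlations, relatives and cluster mates included, 24 changed sign under at least 1 of 4 alternatives, and in 5 of these 1 of the values had a p under 0.05. In the last columns of liver, miR-125a-5p with let-7e-5p was -0.50, miR-99a-5p with let-7c-5p -0.50 and with miR-10b-5p -0.30, miR-99b-5p with let-7e-5p was 0.83 in the first columns of kidney, and with miR-10b-5p -0.23 under library totals. The cause was not tested. Depth limits the low members most, as miR-125b-5p and miR-125b-2-3p had 15 counts each in the smallest VAT library.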
